A study of Mus musculus with 4 samples.

Results

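The genes of the small leucine-rich proteoglycans were followed in mouse C3H10T1/2 cells with and without 5-AZA treatment. In the values that follow, before stands for the untreated and after for the 5-AZA samples. The 10 members were chosen by name, as Dcn, Lum, Bgn, Fmod, Ogn, Omd, Prelp, Aspn, Kera and Epyc, and the transcripts listed for each gene were summed. They are 10 of the 21878 genes with mRNA values, and 19 of the 75959 transcripts belong to them. C3H10T1/2 is an established mesenchymal stem cell line derived from C3H mouse embryos. The untreated group holds replicates 1 and 2, and the treated group, which received 5-AZA, holds replicates 101 and 102. The drug, 5-azacytidine, resembles cytidine, enters nucleic acids and lowers DNA methylation. The treated cells were listed with 20 μM for 72 hours and then 21 days in fresh growth medium. No time in culture was listed for the untreated cells, so the drug and the time in culture cannot be told apart. The paper calls the 2 samples of a group biological repeats. Neither the paper nor the labels say whether they came from separate cultures, so the p-values measure only the spread between these samples.

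Small leucine-rich proteoglycans are secreted matrix proteins whose curved core of leucine-rich repeats binds collagen fibrils and sets their diameter and spacing. Many carry chondroitin, dermatan or keratan sulphate chains, and several bind growth factors of the TGF-beta family. Decorin, biglycan and asporin form class I, lumican, fibromodulin, keratocan, PRELP and osteomodulin class II, and epiphycan and osteoglycin class III. Several of these genes lie side by side in the mouse genome. In connective tissue they are known as products of fibroblasts, tendon, cartilage and bone cells, and keratocan as a product of the cornea.

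Levels were given as FPKM, the fragments of a transcript scaled to its length and to the sequenced fragments, so that levels can be set side by side between genes. FPKM sums over all mRNAs lay between 328410 and 361664 in the 4 samples. The number of reads behind a value is unknown, and the number of samples limits the precision of every value. Changes were tested with limma on log2(FPKM + 0.1) over all 13199 genes with a mean of at least 0.1 FPKM, which includes all 10 members. A gene passed the test at an adjusted p-value below 0.05, and it was called where its change was also over 2-fold. The added 0.1 FPKM shrinks fold changes at low levels, which matters here for Kera. The smallest two-sided p-value that an exact permutation of 2 samples against 2 can give is 0.333, so no such test of a single gene could pass. The fit was repeated with each sample left out in turn. There the other sample of its group is assumed to vary like the samples of the other group. Passing or not in such a fit therefore does not measure how far a result rests on the sample left out.

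The cell types of these cultures were checked on marker lists. All 8 skeletal muscle markers were called higher, and their summed level was 1.43 and 0.988 FPKM in untreated replicates 1 and 2 and 867 and 1315 FPKM in 5-AZA replicates 101 and 102. The untreated means of Tnni2, Ckm, Myog, Myh3 and Mb were below the limit of 0.1 FPKM. These genes entered the test through the 5-AZA group, in which they are high. Of 7 adipocyte markers 6 were tested and 5 were called higher, with sums of 45.1 and 30.4 FPKM before and 1044 and 1434 FPKM after treatment. Cidec, among those called, was below 0.1 FPKM in both untreated samples and entered the test through the 5-AZA group. Of 7 mesenchymal markers 3 passed as higher (Thy1, which was called, Pdgfra and Twist2) and 1, Vim, as lower. The sums of this list, 2472 and 2585 FPKM against 1412 and 1605 FPKM, are mostly Vim, with 2268 and 2406 FPKM against 1178 and 1380 FPKM. The 6 tendon markers held 1 called lower, tenomodulin (Tnmd), with sums of 143 and 145 FPKM against 23.8 and 22.9 FPKM. Of 7 chondrocyte markers 5 were tested, 2 were called higher (Matn3 and Comp) and 3 lower (Col2a1, Sox9 and Matn1), with sums of 96.3 and 85.0 FPKM against 24.5 and 37.6 FPKM. Acan was at or below 0.111 FPKM in every sample, and Snorc had no values. Matn1 was below 0.1 FPKM in both 5-AZA samples, so it entered the test through the untreated group. The part of these cell types in the results on the proteoglycans was not tested, and in RNA of a whole culture fewer cells of a type and less RNA per cell cannot be told apart.

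Of the 10 proteoglycan genes 7 passed the test, in both directions. Lum, Kera and Epyc were called higher, Dcn passed as higher with a change under 2-fold, Fmod was called lower, and Aspn and Prelp passed as lower under 2-fold. Bgn, Ogn and Omd did not pass. Of all genes tested, 13.1% were called higher and 1.32% lower, against 3 and 1 of the 10 members. At any size of change 18.6% of the genes tested passed as higher and 5.93% as lower, against 4 and 3 members. Over all genes 1724 were called higher and 174 lower, and quantile normalization gave 1041 and 886. The values of both groups did not overlap in 9 of the 10 members, and in 62.2% of all genes tested. Every member but Omd kept its direction under all alternatives fitted. The median log2 fold change was 0.12 over the members and 0.05 over all genes tested.

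**Figure D1:**
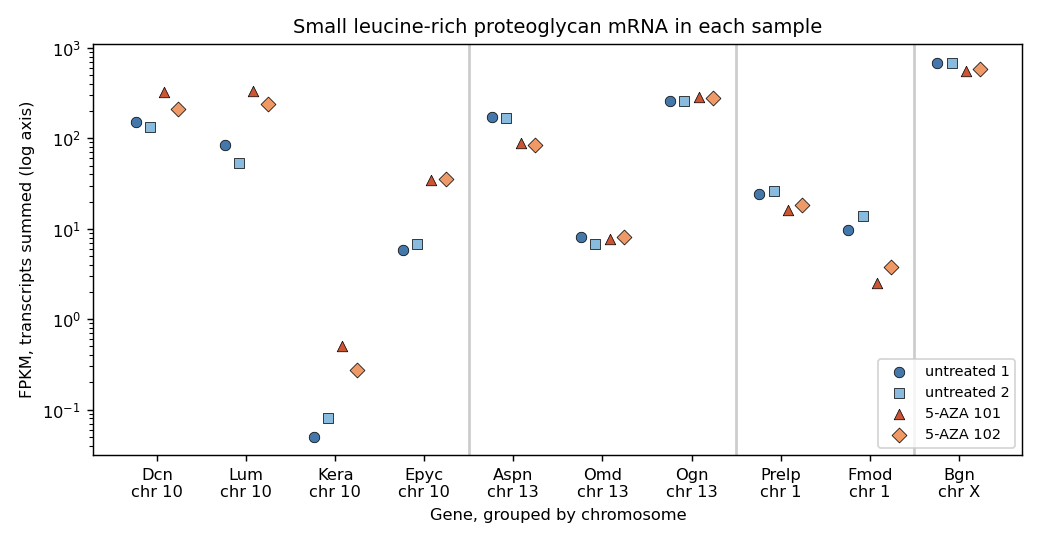
Levels of the 10 genes in each sample, as FPKM on a log axis with transcripts summed, grouped by chromosome. Blue points are the untreated samples and orange points the 5-AZA samples. The 4 genes of chromosome 10 and Ogn lie higher in both 5-AZA samples, and Aspn, Prelp, Fmod and Bgn lie lower. Of these, Ogn and Bgn did not pass the test.

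Decorin (Dcn) of class I, which decorates collagen fibrils and binds TGF-beta, was listed at 153 and 133 FPKM in untreated replicates 1 and 2 and at 328 and 208 FPKM in 5-AZA replicates 101 and 102. Both 5-AZA samples were above both untreated samples, and they differed from each other by more than the untreated ones. On the log2 scale Dcn was higher by 0.87 with a standard error of 0.19 (adjusted p = 0.0102, limma). It was 0.55 without replicate 101 and 1.20 without replicate 102. Dcn did not pass when samples were centred on their medians (0.77, adjusted p = 0.0534, limma). Nor did it pass without the trend (adjusted p = 0.0880, limma) or without a limit on low values (adjusted p = 0.185, limma).

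Biglycan (Bgn), the close relative of decorin in class I, had the highest level of the 10 genes in every sample. It was listed at 682 and 686 FPKM in the untreated samples and at 558 and 587 FPKM in the 5-AZA samples. The groups did not overlap, with a log2 fold change of -0.26 (95% interval -0.49 to -0.03, unadjusted), but the gene did not pass over all genes tested (adjusted p = 0.102, limma). When samples were centred on their medians it passed as lower (-0.36, adjusted p = 0.0222, limma).

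Asporin (Aspn), a class I protein with a stretch of aspartates and without the usual chain attachment site, was listed at 171 and 166 FPKM in the untreated samples. In the 5-AZA samples it was listed at 88.8 and 84.8 FPKM. Both groups were tight and lay far apart. Its log2 fold change of -0.96 had a standard error of 0.09 (adjusted p = 0.000106, limma), just under 2-fold, and it passed the test with each sample left out in turn. It was called lower when samples were centred on their medians (-1.07) or quantile normalized (-1.004).

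Lumican (Lum), a keratan sulphate protein of class II that orders collagen fibrils in the cornea and skin, was listed at 84.0 and 53.9 FPKM in the untreated samples and at 333 and 242 FPKM in the 5-AZA samples. The lower 5-AZA value was well above the higher untreated one. This gave a log2 fold change of 2.08 with a standard error of 0.21 (adjusted p = 0.000155, limma). It stayed positive with every sample left out, at 1.85 without replicate 101 and 2.31 without replicate 102. Without untreated replicate 1 it was 2.40 and without untreated replicate 2 it was 1.76. Lum did not pass without a limit on low values (adjusted p = 0.0640, limma).

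Keratocan (Kera), the corneal relative of lumican, was the lowest member throughout. It was listed at 0.0503 and 0.0814 FPKM in the untreated samples and at 0.508 and 0.271 FPKM in the 5-AZA samples. Only the 5-AZA samples reached the limit of 0.1 FPKM, so the gene entered the test through the group in which it is high. Its values of untreated replicates 1 and 2 came from different transcripts, XM_006513273.3 and NM_008438.3. Kera was higher by 1.52 on the log2 scale with a standard error of 0.40 (adjusted p = 0.0245, limma), and 0 of the 4 fits with a sample left out passed (adjusted p from 0.0537 to 0.107, limma). With a pseudocount of 1 FPKM it was 0.38 and after quantile normalization 0.16.

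Fibromodulin (Fmod), a class II protein of cartilage and tendon that takes part in collagen cross-linking, went the other way. It was listed at 9.80 and 14.0 FPKM in the untreated samples and at 2.53 and 3.75 FPKM in the 5-AZA samples. Both 5-AZA values were below both untreated values, and the log2 difference of -1.89 had a standard error of 0.23 (adjusted p = 0.000440, limma). Without replicate 101 it was -1.62 (adjusted p = 0.111, limma) and without replicate 102 it was -2.16 (adjusted p = 0.0841, limma).

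PRELP (Prelp), which anchors basement membranes to the underlying connective tissue, was listed at 24.2 and 25.9 FPKM in the untreated samples and at 16.1 and 18.2 FPKM in the 5-AZA samples. All values of the treated group were lower. Prelp differed by -0.55 on the log2 scale with a standard error of 0.12 (adjusted p = 0.00884, limma), and the test was passed in 1 of the 4 fits with a sample left out, the one without untreated replicate 1 (adjusted p = 0.0256, limma). Without replicate 101, without replicate 102 and without untreated replicate 2 the adjusted p was 0.101, 0.0750 and 0.0729 (limma).

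Osteomodulin (Omd), a keratan sulphate protein of bone, was listed at 8.04 and 6.76 FPKM in the untreated samples and at 7.60 and 8.06 FPKM in the 5-AZA samples. It was the only member whose groups overlapped. Its log2 difference was 0.09 with a 95% interval from -0.25 to 0.42 (adjusted p = 0.733, limma), and its sign turned with the scaling and without untreated replicate 2.

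Osteoglycin (Ogn) of class III, also known as mimecan, was listed at 256 FPKM in both untreated samples and at 288 and 281 FPKM in the 5-AZA samples. The difference was small and the groups did not overlap. Its log2 difference was 0.15 with a 95% interval from -0.06 to 0.36 (adjusted p = 0.281, limma).

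Epiphycan (Epyc), the class III protein of growth plate cartilage, was called higher. It was listed at 5.76 and 6.85 FPKM in the untreated samples and at 34.8 and 35.6 FPKM in the 5-AZA samples. The samples of a group were close to each other and the groups lay far apart. Epyc was higher by 2.47 on the log2 scale with a standard error of 0.13 (adjusted p = 3.32e-06, limma). Epyc and Aspn were the members that passed the test under all 11 alternatives, among them each sample left out in turn.

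Class I held Dcn, which passed as higher, Aspn, which passed as lower, and Bgn, which did not pass. Class II held Lum and Kera, which passed as higher, Fmod and Prelp, which passed as lower, and Omd, which did not pass. Class III held Epyc, which passed as higher, and Ogn, which did not pass. On chromosome 10 the genes stand in the order Dcn, Lum, Kera and Epyc with no other protein-coding gene between them in the RefSeq annotation of GRCm38. Dcn spans chr10:97479500-97518163, Lum chr10:97565501-97572703, Kera chr10:97606962-97613688 and Epyc chr10:97644068-97681908. Dcn, Lum and Epyc passed the test as higher, and so did Kera, which had entered it through the 5-AZA group. Without replicate 101, and likewise without replicate 102, Epyc was the only gene of these that passed.

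On chromosome 13 the order is Aspn (chr13:49544443-49567565), Omd (chr13:49582462-49592612) and Ogn (chr13:49608015-49624501), of which Aspn passed as lower and the others did not pass. On chromosome 1, Prelp (chr1:133910304-133930102) and Fmod (chr1:134037254-134048280) are next to each other and both passed as lower. Bgn lies alone on chromosome X (chrX:73483601-73495936) and did not pass. The chromosome 13 genes lie within the span of Cenpp (chr13:49464025-49652950), a centromere protein gene that did not pass (-0.10 on the log2 scale, adjusted p = 0.734, limma). These groups of neighbours were read from the values and carry no test of their own.

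The 5 protein-coding genes on each side of these loci give the setting. Of the 40 flanking genes 27 were tested, 2 were called higher and 1 lower, and 8 passed the test at any size of change. Of all genes tested 13.1% were called higher and 1.32% lower, and 18.6% passed as higher and 5.93% as lower. At the chromosome 10 locus 0 of 8 tested neighbours were called, and 2 passed as higher, Nudt4 by 0.91 (adjusted p = 0.000197, limma) and Dusp6 by 0.97 (adjusted p = 0.00750, limma) on the log2 scale. At the chromosome 13 locus none of the 7 tested neighbours passed, and Ecm2, itself a relative of the family, had a log2 fold change of -0.05. At the chromosome 1 locus the calls were Atp2b4 and Mybph, which were higher, and Chit1, which was lower. Chit1 was listed at 1.30 and 1.33 FPKM in the untreated and at 0.0213 and 0.137 FPKM in the 5-AZA samples. It met the limit of 0.1 FPKM through the untreated group, in which it is high. Mybph, a thick filament protein of skeletal muscle, was listed at 0 in both untreated samples and at 10.7 and 14.8 FPKM in the 5-AZA samples. It thus entered the test through the 5-AZA group.

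**Figure D2:**
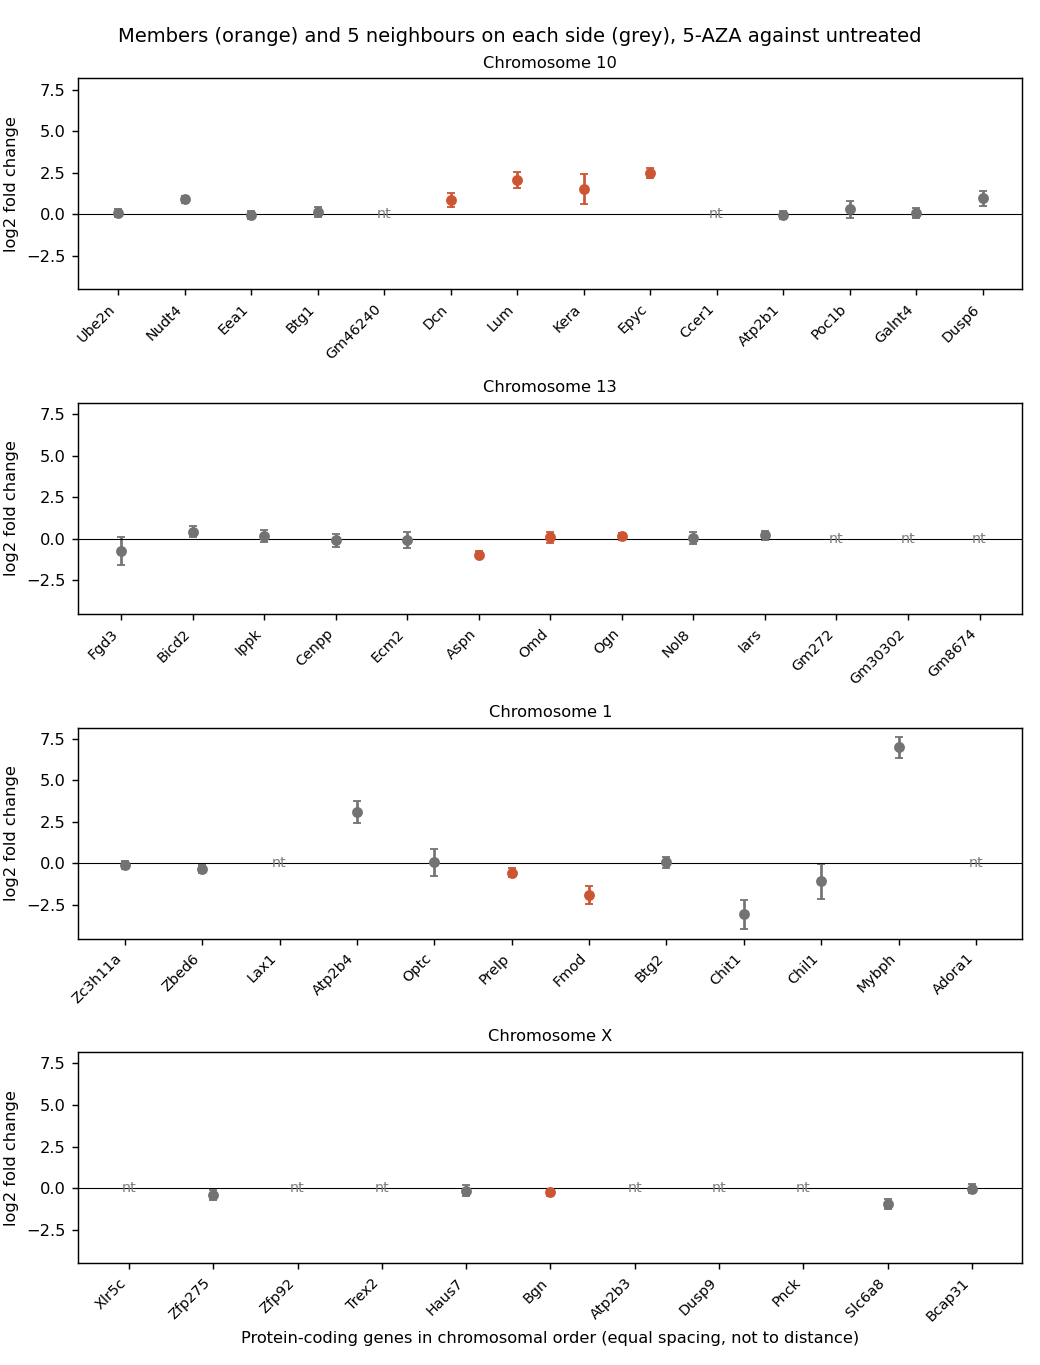
Log2 fold change of the members (orange) and of 5 protein-coding neighbours on each side (grey), in chromosomal order at the 4 loci, with 95% intervals from limma before adjustment; nt marks genes that were not tested or have no values. The 4 members on chromosome 10 all lie above 0, from 0.87 to 2.47, and on chromosome 13 Aspn lies at -0.96 beside Omd at 0.09 and Ogn at 0.15.

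The make-up of the family's mRNA differed between the groups. The 10 genes summed to 1395 and 1348 FPKM in the untreated samples and to 1657 and 1469 FPKM in the 5-AZA samples. Bgn held 48.9% and 50.9% of this sum before treatment and 33.7% and 40.0% after it. Lum held 6.02% and 3.99% before and 20.1% and 16.5% after. Dcn went from 11.0% and 9.86% to 19.8% and 14.2%, and Aspn from 12.3% in both samples to 5.36% and 5.77%. The share of Ogn overlapped between the groups, from 17.4% to 19.1% over the 4 samples. These shares are tied to each other, since a larger share of one gene lowers the others.

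The order of levels differed too. In both untreated samples it was Bgn, Ogn, Aspn, Dcn and Lum, followed by Prelp and Fmod. In replicate 102 it was Bgn, Ogn, Lum, Dcn and Aspn, and in replicate 101 Bgn, Lum, Dcn, Ogn and Aspn. Within the 5-AZA group the ranges of Lum, Dcn and Ogn overlapped, so their order there is not settled by these samples. Epyc held rank 9 and 8 in the untreated and rank 6 in both 5-AZA samples, and Fmod rank 7 and then rank 9.

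**Figure D3:**
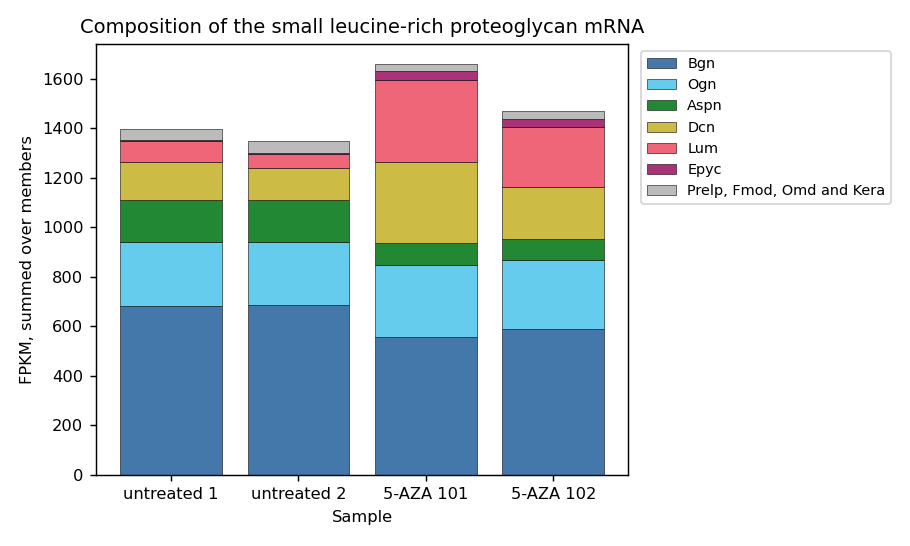
FPKM of the 10 genes stacked in each sample, with Prelp, Fmod, Omd and Kera shown together. The Bgn band shrinks from 682 and 686 FPKM to 558 and 587 FPKM, and the Lum and Dcn bands widen in both 5-AZA samples.

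Ratios within a sample do not depend on the scaling between samples. Lum stood at 0.490 and 0.324 times Aspn in the untreated samples and at 3.75 and 2.85 times Aspn in the 5-AZA samples. Epyc stood at 0.587 and 0.490 times Fmod before and at 13.7 and 9.49 times Fmod after treatment. Dcn stood at 0.224 and 0.194 times Bgn before and at 0.588 and 0.355 times Bgn after treatment. Lum, which was listed at 0.548 and 0.405 times Dcn in the untreated samples, reached 1.02 and 1.16 times Dcn. In each of these pairs the groups did not overlap. For Lum over Aspn, Epyc over Fmod and Dcn over Bgn this had to follow from the single genes. In each of these pairs the first gene lay higher and the second lower, without overlap, so the ratios add no separate support.

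The 2 treated samples were not alike in every member. Dcn, Lum and Kera were higher in replicate 101 than in replicate 102, whereas the summed markers of skeletal muscle and adipocytes, given above, were higher in replicate 102, as were Fmod and Prelp. Epyc, Aspn and Ogn differed little between these samples. Whether the makeup of the cultures had a part in this was not tested.

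The transcripts were also fitted singly. Of the 19 member transcripts 17 were tested, 2 were called higher and 1 lower, and of all 35557 transcripts tested 2.10% were called higher and 0.262% lower. The calls were NM_008524.2 of Lum, NM_007884.2 of Epyc and NM_021355.3 of Fmod, each the only transcript of its gene. The main transcript of Aspn, NM_025711.3, made up 96.6% of its gene's level before and 96.8% after treatment, and passed as lower by itself (-0.96 on the log2 scale, adjusted p = 0.00799, limma). The main transcript of Prelp, NM_054077.4, made up 96.1% and 94.2% of its gene and did not pass by itself (-0.58 on the log2 scale, adjusted p = 0.121, limma).

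Decorin has 2 transcripts in the values. NM_001190451.2 made up 98.0% of the gene's level in the untreated and 96.2% in the 5-AZA samples, and it did not pass by itself (0.85 on the log2 scale, adjusted p = 0.141, limma), whereas the gene did. NM_007833.6 was listed at 2.82 and 2.95 FPKM before and at 12.8 and 7.48 FPKM after treatment, and did not pass (1.73 on the log2 scale, adjusted p = 0.0531, limma).

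Omd, whose summed values overlapped, has 3 transcripts. NM_012050.2 was listed at 1.96 and 2.06 FPKM before and at 0.675 and 0.515 FPKM after treatment, and its share of the gene went from 27.2% to 7.59%. The predicted variant XM_017315520.1 was listed at 5.25 and 3.17 FPKM before and at 6.39 FPKM or more after treatment, and its share went from 56.9% to 82.3%. Neither passed the test (adjusted p = 0.132 and 0.357, limma), and reads from exons that transcripts share may be assigned to either.

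The loci were also read in the lncRNA and circRNA values. Between the outer ends of the member genes 31 lncRNAs are listed, 12 of them at 0 in all samples, and 11 overlap a member. Of the 11 tested lncRNAs 0 were called with limma. Over all lncRNAs tested 0.984% were called higher and 0.154% lower.

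The 3 lncRNAs tested at the chromosome 13 locus lie within Aspn, and none of them passed the test. NONMMUT017420.2 on the plus strand (chr13:49559077-49560650) was listed at 2.01 and 2.04 FPKM in the untreated and at 0.496 and 0.781 FPKM in the 5-AZA samples. Its log2 fold change was -1.55 (adjusted p = 0.193, limma). NONMMUT017419.2 on the minus strand (chr13:49544600-49546314) was listed at 0.499 and 0.355 FPKM before and at 0.0590 and 0.0525 FPKM after treatment, a log2 difference of -1.75 (adjusted p = 0.261, limma). NONMMUT017419.2 was above 0.1 FPKM only in the untreated samples, so it entered the test through that group. NONMMUT017421.2, also on the minus strand, was listed at 0.384 and 0.288 FPKM before and at 0.342 and 0.322 FPKM after treatment, and these groups overlapped. NONMMUT017420.2 and NONMMUT017419.2 had lower values in the 5-AZA samples, as Aspn itself did. No source used here says whether strand was used in counting, so reads of a gene and of a transcript that overlaps it may be mixed.

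The lncRNA with the highest level at these loci, TCONS_00021234 (chrX:73455147-73495937, plus strand), is classed by the authors as sense-overlapping and ends within 1 base of the end of Bgn. It was listed at 189 and 215 FPKM in the untreated and at 197 and 134 FPKM in the 5-AZA samples, so the groups overlapped. NONMMUT007039.2, which lies within Dcn, was listed at 2.00 and 2.46 FPKM before and at 3.38 and 1.92 FPKM after treatment, and these groups overlapped as well. Of the 10 genes only Bgn hosted a listed circRNA, circRNA_4228 (chrX:73491341-73492833), with 0.0214 RPM in untreated replicate 2 and 0 in the other samples. That value is the lowest listed above 0 in that sample.

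The promoters were described because 5-AZA lowers the methylation of CpG sites, and methylation itself was not measured here. RefSeq windows of 250 bases before a start (GRCm38.p6) were found for 8 of the 10 genes, 9 windows in all, and for Dcn and Lum none was used here. These windows held 0 to 7 CpG dinucleotides, and the median over all 32851 windows was 6. Bgn, the gene with the highest level, had the most CpG sites with 7, and 57.0% of all windows hold at most as many. Epyc and Aspn, which passed the test in opposite directions, both had 2, as did Fmod, and 29.0% of all windows hold at most 2. Genes that passed as higher (Kera 1, Epyc 2 and 0) and as lower (Aspn 2, Fmod 2, Prelp 5) overlapped in their number of CpG sites. Some of these windows lie wholly or mostly inside the span of their gene. They are those of Prelp (chr1:133921402-133921651), Kera (chr10:97606955-97607204) and the second start of Epyc (chr10:97646853-97647102). Such windows precede a start within the gene rather than its outer end.

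The windows of the genes with the clearest change in each direction, and of Bgn, are printed 5′ to 3′ on the strand of the gene, with CpG dinucleotides in capitals. They lie at chr10:97643818-97644067 for Epyc, chr13:49544193-49544442 for Aspn, chr1:134037004-134037253 for Fmod and chrX:73483351-73483600 for Bgn, all on the plus strand.
Epyc: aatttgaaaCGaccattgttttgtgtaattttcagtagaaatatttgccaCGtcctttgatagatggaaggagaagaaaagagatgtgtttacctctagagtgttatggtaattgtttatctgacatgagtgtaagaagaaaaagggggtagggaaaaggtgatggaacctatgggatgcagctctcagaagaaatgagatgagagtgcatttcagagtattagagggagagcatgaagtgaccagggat
Aspn: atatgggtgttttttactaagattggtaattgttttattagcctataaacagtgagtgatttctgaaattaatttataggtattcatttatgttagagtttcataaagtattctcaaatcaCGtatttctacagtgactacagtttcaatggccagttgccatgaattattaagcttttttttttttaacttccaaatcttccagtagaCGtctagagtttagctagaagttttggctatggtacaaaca
Fmod: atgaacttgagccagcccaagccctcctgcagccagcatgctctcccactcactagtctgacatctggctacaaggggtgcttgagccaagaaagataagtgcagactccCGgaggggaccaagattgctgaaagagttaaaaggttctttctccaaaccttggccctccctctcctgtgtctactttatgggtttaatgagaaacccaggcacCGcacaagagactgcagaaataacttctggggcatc
Bgn: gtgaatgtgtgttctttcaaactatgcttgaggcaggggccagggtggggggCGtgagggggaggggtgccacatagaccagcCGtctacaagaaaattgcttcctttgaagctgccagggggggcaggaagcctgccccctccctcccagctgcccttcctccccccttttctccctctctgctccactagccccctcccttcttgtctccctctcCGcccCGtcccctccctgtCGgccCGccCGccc

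Base composition differed between these windows, with 39.2% G and C in Epyc, 30.0% in Aspn, 51.2% in Fmod and 64.4% in Bgn. The TATA sequence TATAAA, searched on both strands, was found in the windows of Aspn and Ogn and in 12.4% of all windows. The E-box CAGCTG, which reads the same on both strands, was found in those of Ogn and Bgn and in 13.001% of all windows. CCAAT, on both strands, was found in those of Prelp, Kera and Aspn and in 33.8% of all windows.

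**Figure D4:**
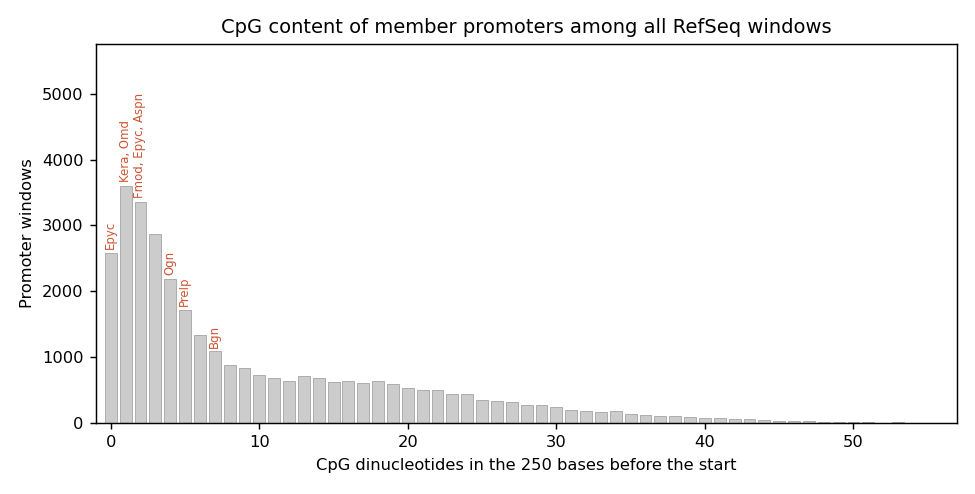
Number of RefSeq promoter windows (y axis) by the CpG dinucleotides in the 250 bases before the start (x axis), with the members named above their bars. The 9 member windows lie between 0 and 7 CpG, and Epyc is named once for each of its 2 starts.

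Other leucine-rich proteoglycans were low in these cells. Of 8 relatives outside the 10 members 6 were tested, 2 were called higher and 1 lower. Of all genes tested 13.1% were called higher and 1.32% lower, and 18.6% passed as higher and 5.93% as lower. The counts of this and the following lists are to be read beside these shares. Tsukushi (Tsku), a secreted modulator of BMP and Wnt signals, was listed at 1.98 and 2.30 FPKM before and at 4.52 and 4.67 FPKM after treatment, and Podn, which encodes podocan, at 0.301 and 0.192 FPKM before and at 0.724 and 0.736 FPKM after. Chadl, a chondroadherin-like gene, was listed at 2.09 and 2.30 FPKM before and at 0.538 and 0.983 FPKM after treatment. With replicate 101 or replicate 102 left out none of these 3 genes passed (adjusted p from 0.0571 to 0.1395, limma), and the log2 fold change of Podn went from 1.28 to 0.14 after quantile normalization. Ecm2 was listed at 3.76 to 5.56 FPKM and did not pass, and Chad was listed at 0 in all samples.

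Of 22 enzymes that build the linker and the chondroitin or dermatan sulphate chains 19 were tested. Among these 7 passed as lower and none as higher, against 5.93% and 18.6% of all genes tested, and 1 was called lower. Without replicate 101, and likewise without replicate 102, 1 of these 7 passed, Csgalnact1. The median log2 fold change of the tested enzymes was -0.29, against 0.05 over all genes. Chst7, a chondroitin 6-O-sulphotransferase, was listed at 9.40 and 7.76 FPKM before and at 1.99 and 2.82 FPKM after treatment (log2 fold change -1.81, adjusted p = 0.000291, limma), and it did not pass without replicate 101 (0.0700) or 102 (0.0551). Among those with the highest levels, Dse, the dermatan sulphate epimerase, was listed at 49.8 and 49.1 FPKM against 38.1 and 38.3 FPKM. The xylose kinase Fam20b was listed at 35.8 and 37.9 FPKM against 27.0 and 27.5 FPKM, and Csgalnact1, which starts the chondroitin chain, at 30.2 and 30.7 FPKM against 16.7 and 17.7 FPKM. All 3 passed as lower with changes under 2-fold (log2 fold changes of -0.37, -0.43 and -0.82). Csgalnact1 passed with each sample left out in turn, and Dse and Fam20b in none of these fits.

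Of 8 genes of keratan sulphate synthesis 5 were tested and 1 was called higher, Chst2, with 0.496 and 0.628 FPKM before and 1.17 and 1.70 FPKM after treatment. It passed in 1 of the 4 fits with a sample left out, without untreated replicate 2, the adjusted p reaching 0.145 in the others (limma), and its log2 fold change went from 1.20 to 0.37 after quantile normalization. The galactosyltransferase B4galt1 had the highest level of this list and did not pass (log2 fold change 0.27, adjusted p = 0.112, limma). Neither did B3gnt2 (0.03) or the sulphotransferase Chst1 (-0.01).

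The fibrillar collagens, to which these proteoglycans bind, passed the test in both directions. Of 10 tested, 1 passed as higher and 5 as lower, and 3 were called lower. Col3a1 was listed at 676 and 686 FPKM before and at 1153 and 1191 FPKM after treatment (log2 fold change 0.78, adjusted p = 0.000700, limma). Col1a2 was listed at 600.2 and 557 FPKM before and at 419.8 and 475 FPKM after treatment (-0.37, adjusted p = 0.0381, limma). Col3a1 did not pass without replicate 101 (adjusted p = 0.0503, limma) or 102 (0.0551), and Col1a2 in none of the fits with a sample left out. Col5a2 did not pass (-0.14). The cartilage collagens Col2a1 and Col11a1 and Col27a1 were called lower, by 3.52, 1.39 and 1.88 on the log2 scale. These 3 calls passed with each sample left out in turn.

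Of the 12 tested large and cell-surface proteoglycans 3 passed as higher and 3 as lower, and without replicate 101 or 102 1 passed in each direction, Srgn and Cspg4. Serglycin (Srgn), the proteoglycan of secretory granules, was called higher, from 1.75 and 1.70 FPKM to 12.4 FPKM in both 5-AZA samples. Cspg4, also known as NG2, was called lower, from 20.5 and 18.1 FPKM to 4.85 and 6.37 FPKM. Both calls passed with each sample left out. Versican (Vcan), the large proteoglycan of loose connective tissue, passed as higher under 2-fold, with 58.3 and 49.5 FPKM before and 90.2 and 86.5 FPKM after treatment, but not without replicate 101 (adjusted p = 0.123, limma) or 102 (0.114). Sdc4 had the highest level of the list, with 123 to 132 FPKM over the 4 samples, and did not pass, nor did Sdc2 (log2 fold change 0.31).

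Among the ligands and receptors of TGF-beta with 2 BMP ligands, 7 genes were tested. Of them 5 passed as higher and 1 as lower, against 18.6% and 5.93% of all genes tested. Without replicate 101, and likewise without replicate 102, 0 of these 6 passed in limma. Tgfb2 was called lower, with 15.8 and 12.0 FPKM before and 5.76 and 6.12 FPKM after treatment. The co-receptor Tgfbr3 was called higher, with 6.02 and 5.43 FPKM before and 11.8 and 12.3 FPKM after treatment. Their adjusted p without one of the 5-AZA samples reached 0.123 and 0.0728 (limma). Tgfbr2 had the highest level of the list and passed as higher under 2-fold (log2 fold change 0.71), as did Tgfbr1 (0.55) and Bmp4 (0.60).

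Of 9 further receptors reported to bind these proteoglycans 7 were tested and 2 were called higher. Egfr, which decorin is reported to bind, was listed at 7.18 and 6.06 FPKM before and at 16.8 and 17.1 FPKM after treatment (log2 fold change 1.35, adjusted p = 0.000133, limma). Met was listed at 4.17 and 3.12 FPKM before and at 8.22 and 6.54 FPKM after treatment (1.00, adjusted p = 0.00591, limma). Neither passed without replicate 101 or without replicate 102 (adjusted p up to 0.0720 and 0.188, limma). The receptors with the highest levels, Itgb1 (-0.08), Lrp1 (0.17) and Tlr4 (-0.18), did not pass.

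Of 12 proteases reported to cut these proteoglycans 10 were tested. Of them 4 passed as higher and none as lower, against 18.6% and 5.93% of all genes tested. Mmp3, stromelysin 1, was listed at 0 in both untreated samples and at 2.62 and 2.69 FPKM in the 5-AZA samples, through which it entered the test. The serine protease Htra1 was listed at 3.08 and 2.85 FPKM before and at 20.1 and 27.6 FPKM after treatment (log2 fold change 2.95, adjusted p = 6.10e-06, limma). Both were called higher and passed with each sample left out. Mmp2, with the highest level of this list after treatment, passed as higher under 2-fold, with 169 and 167 FPKM before and 252 and 279 FPKM after. Without replicate 102 its adjusted p was 0.0511 (limma). Adamts1 passed as higher (0.71 on the log2 scale), but not without replicate 101 (adjusted p = 0.131, limma) or 102 (0.105), and Mmp14, at 152 to 182 FPKM, did not pass.

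**Figure D5:**
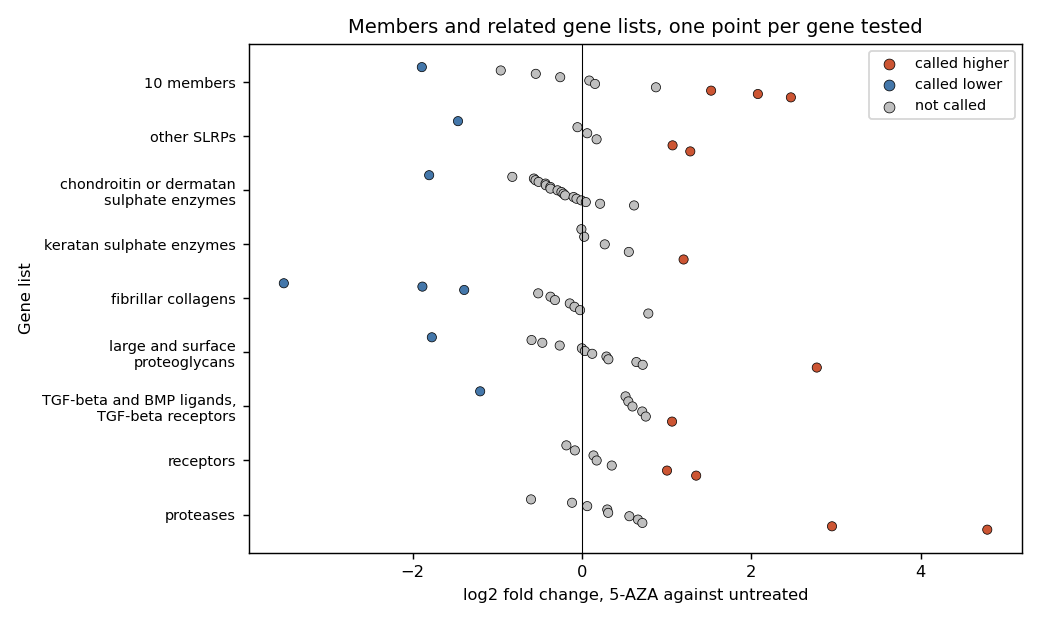
Log2 fold change of every tested gene of the 10 members and of 8 related lists (SLRP stands for small leucine-rich proteoglycan), with calls higher in orange and lower in blue. The members spread from -1.89 to 2.47, while the enzymes of chondroitin or dermatan sulphate lie mostly below 0.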

How the data were processed

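Libraries were made from total RNA with a stranded kit that removes ribosomal RNA. The submitters' processing notes name Trimmomatic, HISAT2, Bowtie2 2.2.9 and eXpress 1.5.1, with no role for each, and the build mm9. The authors deposited FPKM values per mRNA and lncRNA transcript and RPM values per circRNA. Of 2388 host transcripts whose positions the authors list, 87.3% lay inside the RefSeq GRCm38 gene of that name and 72.8% shared its start or end within 1 base, so GRCm38 positions were used for genes.

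Transcripts were summed per gene, log2(FPKM + 0.1) was fitted with limma 3.58.1 (lmFit, eBayes with trend) in R 4.3.3 on the 4 samples, and p-values were adjusted by Benjamini and Hochberg over all genes with a mean of at least 0.1 FPKM. Transcripts and lncRNAs were fitted in the same way. The fit was also run on simulated data in which 200 genes were changed by more than any member here. That run does not show how well changes of the members' size are found. DESeq, named by the paper, needs counts and was not used. The 11 alternatives changed the pseudocount, the limit on low values, the scaling, the trend or the samples. The members and lists were chosen with earlier results of these data known. All members were named, and of each related list (not of the marker lists) the called genes and up to 3 with the highest level. Flanking genes were the 5 protein-coding genes on each side. lncRNAs were placed on RefSeq gene positions rather than on the authors' positions alone. Protein sequences were not analysed here.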

Additional observations from a re-analysis of the deposited data

How the results depend on the processing

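With 2 samples a group, the number of samples limits every value, and no paired analysis was possible because the groups share no replicate numbers. When a sample is left out, the other of its group is assumed to vary like the samples of the other group. Passing or not in such a fit does not measure how far a result rests on the sample left out. Members called higher (3 as reported) numbered 1 without a limit on low values and 1 to 2 with a sample left out, and members called lower (1 as reported) numbered 0 without a limit, 2 after centring and 2 after quantile normalization, and 0 to 1 with a sample left out. Fitted singly, 2 transcripts of members were called higher and 1 lower. Over all genes, 1724 were called higher and 174 lower. The calls higher numbered 845 with a mean of at least 1 FPKM, 875 with a pseudocount of 1 FPKM, 1041 after quantile normalization and 733 to 1617 with a sample left out. The calls lower numbered 83 without a limit, 86 with a pseudocount of 1 FPKM, 886 after quantile normalization and 52 to 184 with a sample left out. The cause was not tested. The log2 fold change of Omd was -0.0215 after centring, -0.0187 after quantile normalization and -0.0374 to 0.208 with a sample left out, the lowest without untreated replicate 2. Quantile normalization moved the median over genes tested from 0.05 to -0.12 and centring to -0.06.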

Other observations

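Further marker lists were read beside the proteoglycans. Of 7 osteoblast markers 4 were tested and 3 were called higher, Bglap, Bglap2 and Phex, and the split of reads between the near-identical Bglap and Bglap2 is uncertain. Bglap was listed at 2.61e-10 FPKM or less in the untreated samples, so it entered the test through the 5-AZA group. The summed level of the list was 17.4 and 32.0 FPKM in the untreated and 58.8 and 63.2 FPKM in the 5-AZA samples. Bglap passed with each sample left out in turn, and Bglap2 and Phex did not pass without replicate 101 (adjusted p = 0.388 and 0.0783, limma) or without replicate 102 (0.452 and 0.0662). Runx2 passed as lower under 2-fold (log2 fold change -0.63), but not in every fit with a sample left out. Its log2 fold change was -0.61 without replicate 101 and -0.64 without replicate 102. Ibsp was listed at 0 in all samples. Of 5 endothelial markers 2 were called higher, Cdh5 and Tek, and the list summed to at most 1.90 FPKM in any sample. Cdh5 was listed at 0 and 0.00622 FPKM in the untreated and at 0.484 and 0.211 FPKM in the 5-AZA samples. It therefore entered the test through the group in which it is high. Of 7 immune markers 2 were tested and 1 was called higher, Cd68. Without replicate 101 neither Tek (adjusted p = 0.129, limma) nor Cd68 (0.0975) passed, and without replicate 102 neither did (0.155 and 0.197). Adgre1 and Cd3e were listed at 0 in all samples. The part of these cell types in the results was not tested.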
